A study of Sus scrofa with 6 samples.

Results

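The Z-disc, M-band, titin and myofibril assembly genes examined here encode the scaffold on which the contractile filaments of striated muscle are built. The members were chosen by symbol and by structure, namely sarcomere scaffold, Z-disc, M-band, sarcomeric actin and assembly genes, without myosin chains, troponins or tropomyosins. Of the 53 symbols named, 37 were paired with 1 of the 28266 rows of the deposited table, and 32 of these averaged 1 FPKM or more across the libraries and were tested. FPKM counts fragments per kilobase of a gene and corrects for the size of the library. Levels of different genes can be set side by side on it as far as the counted length of each gene holds. That length, implied by the values, was 8469 bases for NEB and 813 for SMYD1, and it was not checked. TTN, LDB3, SYNM, FHL1, IGFN1, ACTN3, MYOZ2, MYOZ3, MYOM3, PDLIM7, XIRP1, LMOD1, LMOD3, TMOD1, SMPX and CRYAB were not analysed here, so titin itself, the giant protein after which the set is partly named, is not among the values.

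Porcine satellite cells (PSCs) are the muscle stem cells that leave the cell cycle and fuse into multinucleated myotubes when serum is lowered. They were isolated from male Yorkshire pigs of 3 days of age, were separated from fibroblasts by preplating, received a negative control (NC) siRNA at 50 nM and were differentiated in medium with horse serum. RNA-seq was analysed for 3 libraries at 24 h (NC24h) and 3 at the later time (NC36h), which the series title and the paper give as 36 h and the sample labels as 48 h, and no source ties a library to a single animal or culture. Both groups carry the control siRNA and differ by time in differentiation medium, and p-values measure the spread between these libraries, which may be technical.

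In a sarcomere, thin filaments of actin are anchored in the Z-disc, where α-actinin crosslinks them and filamin C, myotilin, myopalladin, telethonin and other proteins hold the lattice together. Thick filaments of myosin are crosslinked in the M-band by myomesins and obscurin-like 1, nebulin runs along the thin filament, and tropomodulins and leiomodins act at its pointed end. Desmin ties neighbouring Z-discs to each other, while chaperones such as UNC45B and SMYD1 help myosin to fold and assemble. In developing muscle cells some of these proteins first assemble in premyofibrils that contain nonmuscle myosin, and cardiac α-actin precedes skeletal α-actin.

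The libraries held between 16250222 and 21723087 fragments, recovered from the steps of the FPKM values, so that 1 fragment of a gene of 1 kb was worth an FPKM between 0.0457 and 0.0610. Among the members tested, the fragments over all 6 libraries ranged from 197 for TMOD4 to 1602685 for ACTC1. The deposited values gave a median log2 change of -0.16 over all genes from NC24h to NC36h, and median-ratio scaling moved it to -0.0058, so each change below can be read against that shift. NC24h replicate 6 stood apart from NC24h replicates 4 and 5 on the first principal component, at -55.0 against -21.5 and -29.5, and it was the lowest of the 6 libraries in 25 of the 32 members tested.

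The cells carried a skeletal muscle program in all libraries. The 8 skeletal myogenic markers in the table, among them MYOD1, MYF5 and MYMK, summed to between 1393 and 1937 FPKM in NC24h and between 2941 and 3122 in NC36h. The extraction note of the labels names endometrium, of which a list of epithelial markers was read and none of the stroma. Endometrial epithelium left few fragments, with 6 of its 7 markers under 1 FPKM in all libraries and KRT8 and PGR at 0. The remaining epithelial marker, CDH1, was also the marker with the largest change. Its level was 0.318 ± 0.183 FPKM in NC24h and 3.63 ± 1.12 in NC36h (SD, n = 3 each, limma adjusted p = 0.00155). CDH1 reached the minimum mean of 1 FPKM only through NC36h, with 18 fragments in NC24h and 255 in NC36h. The 6 markers of endothelium and blood summed to between 3.26 and 3.98 FPKM in NC24h and between 2.31 and 3.13 in NC36h, nearly all of it PECAM1 and CD68, with KDR, PTPRC and HBB at 0. The 6 fibroblast markers summed to between 930.3 and 1001 FPKM in NC24h and between 824.9 and 1030 in NC36h. Nearly all of that sum was 2 collagens that moved in opposite directions. COL1A2 had means of 692.9 in NC24h and 450.5 in NC36h, and COL3A1 of 241.0 and 443.2. PDGFRA stayed under 1 FPKM. The smooth muscle markers other than SYNPO2, which is also a member, summed to between 1061 and 1510.2 in NC24h and between 1044 and 1179 in NC36h. ACTA2 of that list is also counted below among the cytoskeletal paralogs, and MYH11, which defines smooth muscle, did not exceed 0.03 FPKM. The part of these other cell types in the members' changes was not tested.

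With all 6 libraries, most members rose between NC24h and NC36h. In limma on log2(FPKM + 1), with Benjamini-Hochberg adjustment over all 14060 genes tested and a threshold of 0.05, 23 of the 32 members were higher and 1 was lower at NC36h, while 8 did not pass. Over all genes tested 50.9% passed in either direction, 16.5% higher and 34.4% lower. The members' median log2 change was 0.74, against -0.16 over all genes. The count of higher members was 14 without NC36h replicate 4 and 13 without NC36h replicate 5, fewer than those that did not pass. Calls over all genes fell in these fits too, with 1835 of 14071 and 1565 of 14095 genes higher, against 2322 of 14060 with all libraries. Of those that passed with all libraries, 11 moved by 1 or more on that scale. In 25 of the 32 members the groups did not overlap, which held for 63.6% of all genes. The members that passed were spread over all 10 roles but the titin-linked ankyrin repeat proteins. MYOZ1 and TMOD4 reached the FPKM minimum only through NC36h, and without them 21 of 30 members were higher. With median-ratio scaling 25 members were higher and 1 lower, where 23.9% of all genes were higher.

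**Figure D1:**
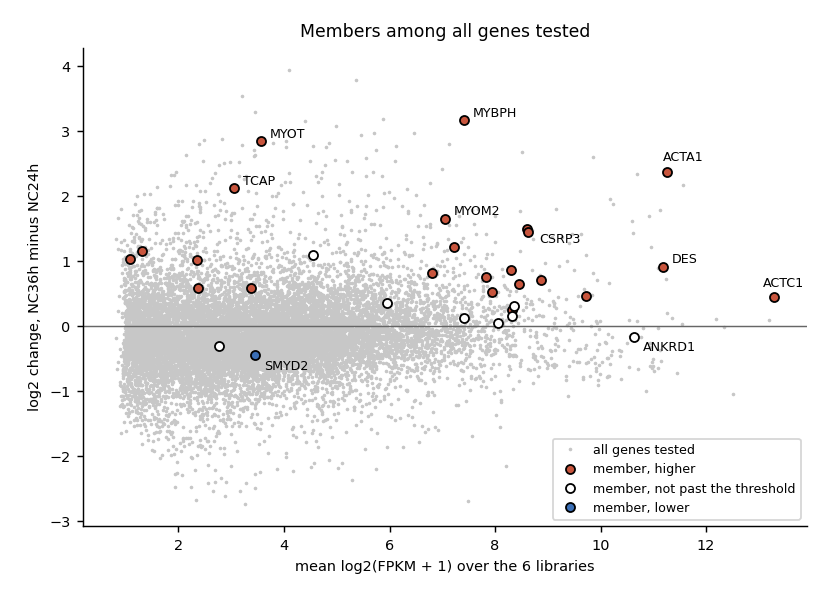
Log2 change from NC24h to NC36h (vertical axis) against mean log2(FPKM + 1) over the 6 libraries (horizontal axis) for the 14060 genes tested (grey) and the 32 members tested (circles, filled red where higher, blue where lower and white where not past the threshold of 0.05). Most members lie above the line at 0 and on the right, where few other genes lie, and SMYD2 is the only member tested that was lower past the threshold.

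Together the 37 members made up 3.53%, 3.27% and 2.28% of the FPKM sum in replicates 4, 5 and 6 of NC24h, and 5.01%, 5.13% and 4.70% in those of NC36h. The groups did not overlap, with means of 3.03% ± 0.659 and 4.94% ± 0.224 (SD, n = 3 each). Without the sarcomeric actins ACTC1 and ACTA1 the share was 1.33% ± 0.316 and 2.02% ± 0.0408. These are bulk samples, in which fewer cells of a type and less RNA per cell cannot be told apart. Even so, levels were high from the earlier time on, and 17 members were at 100 FPKM or above in all 6 libraries. ACTC1 had the highest mean level of the members in both groups, followed by ANKRD1, DES, ACTA1 and FLNC in NC24h and by ACTA1, DES, ANKRD1 and FLNC in NC36h. Within that order ACTA1 moved up from rank 4 to rank 2, MYBPH from 21 to 9 and ACTN2 from 12 to 6.

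**Figure D2:**
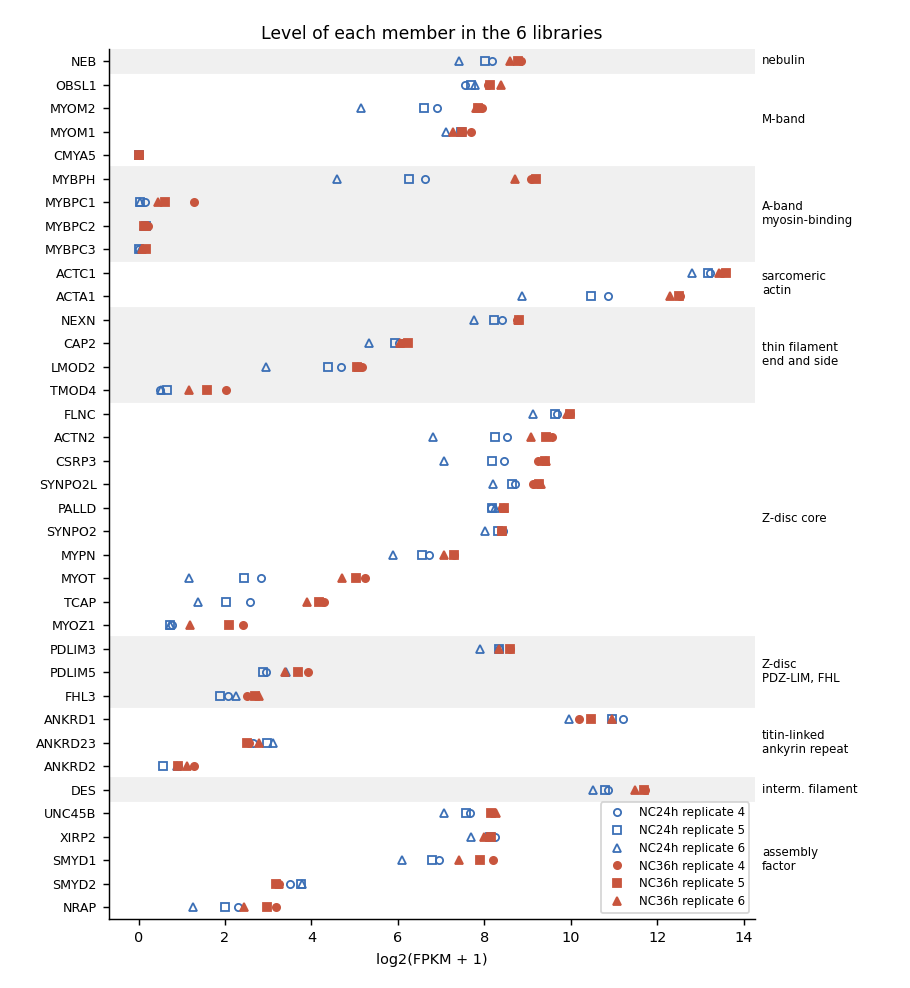
Level of each member on the log2(FPKM + 1) scale (horizontal axis) in the 6 libraries, with NC24h open and NC36h filled, a symbol for each replicate number, and members grouped by role. NC24h replicate 6 is the lowest library in 25 of the 32 members tested, and MYBPC1, MYBPC2, MYBPC3, CMYA5 and ANKRD2 lie near 0.

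Nebulin, the ruler-like protein of the thin filament, rose. NEB (ENSSSCG00000016397), on chromosome 15 of Sscrofa11.1 from 546187 to 766131 in the RefSeq annotation, had an FPKM of 289.1, 258.9 and 168.8 in replicates 4, 5 and 6 of NC24h and of 456.1, 436.4 and 385.4 in those of NC36h. All NC36h libraries lay above all NC24h libraries. The means were 238.9 ± 62.6 and 426.0 ± 36.5 (SD, n = 3 each), and the log2 change was 0.86 (standard error, SE, 0.20; limma adjusted p = 0.0112).

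Of the 3 M-band members tested, 2 rose and MYOM1 did not pass. OBSL1 (ENSSSCG00000028052), which encodes obscurin-like 1 and had the highest mean level of the M-band members, stood at 186.5, 205.0 and 217.9 FPKM in NC24h and at 272.0, 278.0 and 331.8 in NC36h. NC24h replicate 6 was the highest library of its group here, unlike in most members. Its log2 change was 0.53 (SE 0.10, limma adjusted p = 0.00581). MYOM2 (ENSSSCG00000015747), which encodes myomesin 2, the M-protein, had 117.9, 96.2 and 34.7 FPKM in NC24h and 245.5, 230.2 and 222.3 in NC36h. The NC36h libraries lay close together, while NC24h replicate 6 was far under the other two. MYOM2 rose by 1.65 on the log2 scale (SE 0.42, limma adjusted p = 0.0164), and by 1.12 without NC24h replicate 6. MYOM1, the myomesin found in all striated muscle, was at 163.2 ± 23.2 and 178.6 ± 26.3 FPKM (SD, n = 3 each) with overlapping groups, a log2 change of 0.13 (limma adjusted p = 0.475). CMYA5, a large protein that binds titin, had 2 fragments in each group and was not tested.

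Among the myosin-binding proteins of the A-band, MYBPH (ENSSSCG00000030681), encoding myosin-binding protein H, showed the largest change of the members on the log2(FPKM + 1) scale, while MYOT, described with the Z-disc, was at or above it with a smaller pseudocount (3.25 against 3.20 at 0.01) and in voom (3.24 against 3.20). Its FPKM was 97.8, 74.9 and 22.9 in NC24h and 540.8, 582.1 and 414.4 in NC36h. The lowest NC36h library lay far above the highest NC24h library. The mean was 7.86 times as high in NC36h, at 512.4 ± 87.4 against 65.2 ± 38.4 (SD, n = 3 each), with a log2 change of 3.17 (SE 0.50, limma adjusted p = 0.00310), or 2.55 without NC24h replicate 6. The myosin-binding protein C genes were low by contrast. MYBPC1, the slow skeletal form, rested on 8 fragments in NC24h and 165 in NC36h, at 0.104, 0.0179 and 0.0178 FPKM and at 1.45, 0.522 and 0.374. It was under the FPKM minimum and passed only in the fit with no filter (log2 change 0.72, limma adjusted p = 0.0429), in which 20 of 37 members and 11.3% of 21614 genes were higher. MYBPC2, the fast skeletal form, had 20 and 27 fragments, and MYBPC3, the cardiac form, 5 and 22.

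Both sarcomeric actins rose, by 2.37 on the log2 scale for ACTA1 and by 0.44 for ACTC1. ACTC1 (ENSSSCG00000004803), cardiac α-actin, had 9539, 9220 and 7182 FPKM in NC24h and 11629, 12319 and 11108 in NC36h, and ACTA1 (ENSSSCG00000010190), skeletal α-actin, had 1853, 1425 and 466.9 in NC24h and 5885, 5819 and 5012 in NC36h. Neither gene overlapped between the groups, and replicate 6 of NC24h was the lowest library in both. ACTA1 was 4.46 times as high in NC36h, with means of 1248 ± 710 and 5572 ± 486 FPKM (SD, n = 3 each) and a log2 change of 2.37 (SE 0.48, limma adjusted p = 0.00711), or 1.77 without NC24h replicate 6. ACTC1 was 1.35 times as high, with a log2 change of 0.44 (SE 0.15, limma adjusted p = 0.0408). That call was lost with quantile normalization (log2 change 0.23, limma adjusted p = 0.266) and in the fit with no filter (0.325). Over its alternatives the limma adjusted p ran from 0.0168 to 0.325. The actins are near-identical in sequence, so reads may have been split between them by the counting.

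The make-up of the actin transcripts differed between the groups as well. ACTA1 was 16.3%, 13.4% and 6.10% of the sarcomeric actin FPKM in replicates 4, 5 and 6 of NC24h, and 33.6%, 32.1% and 31.1% in NC36h. ACTC1 therefore remained the larger part in every library. Of the FPKM of the 6 actin genes, the sarcomeric actins held 65.7%, 61.4% and 45.4% in NC24h and 81.5%, 80.0% and 76.5% in NC36h. The cytoplasmic actins, named here after their values were seen, went the other way, ACTB from 15.6% ± 4.31 to 6.11% ± 1.15 and ACTG1 from 21.3% ± 5.59 to 10.0% ± 1.19 (SD, n = 3 each). In limma ACTB fell by 0.99 on the log2 scale (adjusted p = 0.00795) and ACTG1 by 0.72 (adjusted p = 0.0162).

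**Figure D3:**
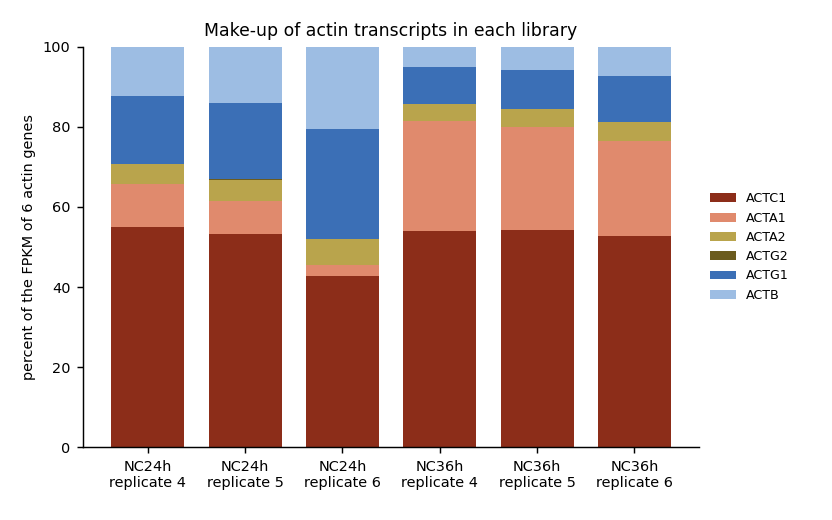
Percent of the summed FPKM of 6 actin genes (vertical axis) held by each actin in the 6 libraries (stacked bars). ACTC1 holds between 42.7% and 55.0% in every library, while ACTA1 goes from between 2.77% and 10.7% in NC24h to between 23.8% and 27.4% in NC36h.

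At the ends and sides of the thin filament, NEXN and TMOD4 rose and LMOD2 and CAP2 did not pass. None of the 4 overlapped between the groups, which held for 63.6% of all genes. NEXN (ENSSSCG00000003768), encoding nexilin, an actin-binding protein of the Z-disc, had 337.6, 299.7 and 216.7 FPKM in NC24h and 429.2, 445.7 and 438.0 in NC36h. Its NC36h libraries differed by less than any pair of NC24h libraries. The log2 change was 0.64 (SE 0.16, limma adjusted p = 0.0143). TMOD4 (ENSSSCG00000006631), the tropomodulin of skeletal muscle that caps pointed ends, was near the FPKM minimum, with 0.416, 0.573 and 0.427 FPKM in NC24h from 30 fragments and 3.08, 2.0 and 1.26 in NC36h from 167. Its log2 change of 1.04 (SE 0.22, limma adjusted p = 0.00870) became 1.88 with a pseudocount of 0.1. LMOD2, which lets pointed ends grow, had the wider spread, at 17.0 ± 9.28 FPKM in NC24h and 33.1 ± 1.39 in NC36h (SD, n = 3 each). Its log2 change of 1.09 (SE 0.42) did not pass (limma adjusted p = 0.0645), while it did with median-ratio scaling (0.0491), with voom on the recovered fragments (0.0435), without NC24h replicate 4 (0.0248) and without NC24h replicate 6 (0.00500, at a smaller change of 0.57), and the range over its alternatives was 0.00500 to 0.147. CAP2, a cyclase-associated protein that acts on actin turnover, stood at 54.6 ± 13.5 and 69.0 ± 5.09 FPKM (SD, n = 3 each; limma adjusted p = 0.138).

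The Z-disc core was the largest role, and 9 of its 10 tested members rose, with SYNPO2 the exception. Among these 9, MYOZ1 reached the FPKM minimum only through NC36h, and 16.5% of all genes tested were higher. FLNC (ENSSSCG00000016578), filamin C, had the highest level among them, at 820.5, 792.9 and 559.2 FPKM in NC24h and 1010.2, 1007 and 955.2 in NC36h. The groups did not overlap, and the log2 change was modest, 0.47 (SE 0.15, limma adjusted p = 0.0365), or 0.30 without NC24h replicate 6. MYOT (ENSSSCG00000014324), myotilin, which crosslinks actin at the Z-disc, changed most, from 6.17, 4.38 and 1.25 FPKM in NC24h to 36.5, 31.6 and 25.3 in NC36h. These were 7.92 times as high on average, with a log2 change of 2.85 (SE 0.41, limma adjusted p = 0.00238), and 2.36 without NC24h replicate 6.

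The log2 changes of the other Z-disc core members ranged from 2.12 for TCAP to 0.16 for SYNPO2. TCAP, telethonin, which links the ends of titin, went from 3.22 ± 1.71 to 16.5 ± 2.44 FPKM (SD, n = 3 each) with a log2 change of 2.12, second to MYOT within this role. ACTN2, α-actinin 2, went from 260.7 ± 134 to 660.9 ± 112 FPKM with a log2 change of 1.496, and CSRP3, the muscle LIM protein, from 258.4 ± 112 to 656.8 ± 46.2 with 1.45. MYOZ1, a calsarcin that binds calcineurin and α-actinin, rose by 1.15 at a low level, from 0.672 ± 0.0379 to 2.95 ± 1.55 FPKM, on 47 and 259 fragments, and by 1.82 with a pseudocount of 0.1 and 1.97 in voom. Smaller log2 changes were those of MYPN, myopalladin, at 0.83, SYNPO2L, a synaptopodin-like actin-binding protein, at 0.71, and PALLD, palladin, at 0.25. PALLD varied little between replicates, at 291.6 ± 9.45 and 346.7 ± 5.42 FPKM (SD, n = 3 each), and it is expressed well beyond muscle. SYNPO2, myopodin, was at 304.9 ± 43.7 and 337.6 ± 1.92 FPKM with overlapping groups (log2 change 0.16, limma adjusted p = 0.262). The limma adjusted p-values of the 7 members that rose in this paragraph lay at 0.00206 for TCAP, 0.0255 for ACTN2, 0.0115 for CSRP3, 0.0185 for MYOZ1, 0.0159 for MYPN, 0.00703 for SYNPO2L and 0.0122 for PALLD.

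**Figure D4:**
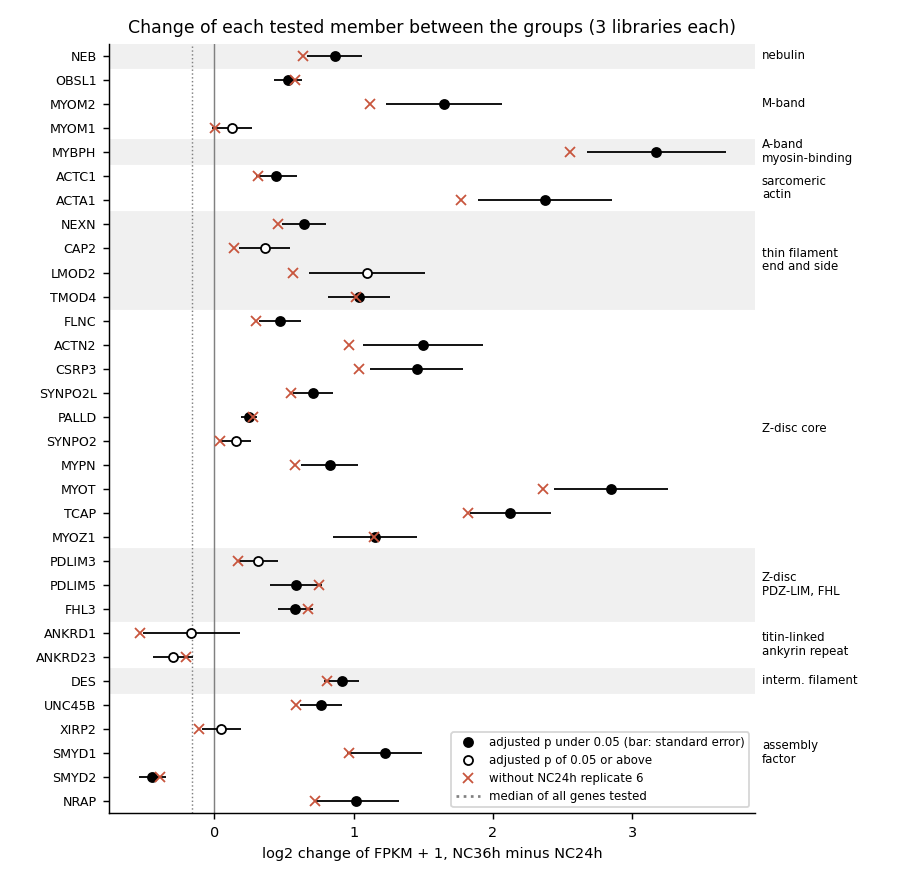
Log2 change of FPKM + 1 from NC24h to NC36h (horizontal axis) for the 32 members tested, grouped by role, with the standard error as a bar, filled where the limma adjusted p was under 0.05, and the change without NC24h replicate 6 as a cross. The dotted line is the median of all genes tested at -0.16, and the rises of MYBPH (3.17), MYOT (2.85) and ACTA1 (2.37) are the largest on this scale.

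PDZ-LIM and FHL proteins dock signaling enzymes at the Z-disc, and their changes were small. PDLIM3 (ENSSSCG00000015796), the α-actinin-associated LIM protein and the highest of the 3, had 321.0, 325.1 and 238.2 FPKM in NC24h and 386.3, 385.7 and 321.9 in NC36h. The groups met, since the lowest NC36h library lay under NC24h replicate 5, and the log2 change of 0.32 (SE 0.14) did not pass (limma adjusted p = 0.103, and 0.0381 with median-ratio scaling, with 0.0186 to 0.249 over its alternatives). PDLIM5, the enigma homolog, had 6.69, 6.38 and 9.69 FPKM in NC24h and 14.1, 11.9 and 9.52 in NC36h. It passed with a log2 change of 0.59 (SE 0.19, limma adjusted p = 0.0359) although NC24h replicate 6 lay above NC36h replicate 6. FHL3, a LIM-only protein that binds actin, went from 3.23 ± 0.541 to 5.31 ± 0.6004 FPKM (SD, n = 3 each), with a log2 change of 0.58 (limma adjusted p = 0.00994).

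The titin-linked ankyrin repeat proteins, known to respond to stretch and stress, were the role in which 0 of 2 tested members passed, in limma (unadjusted p of 0.651 for ANKRD1 and 0.0784 for ANKRD23) and in voom on the recovered fragments. ANKRD1 (ENSSSCG00000010461), the cardiac ankyrin repeat protein, had 2358, 1982 and 996.2 FPKM in NC24h and 1170, 1421 and 1992 in NC36h. Its groups overlapped throughout, and in this gene replicate 6 was the lowest library of NC24h and the highest of NC36h. The log2 change was -0.16 (SE 0.35, limma adjusted p = 0.713), and its sign turned with median-ratio scaling, at 0.011. ANKRD23 was at 6.58 ± 1.19 and 5.14 ± 0.670 FPKM (SD, n = 3 each; log2 change -0.30, limma adjusted p = 0.124), and it passed without NC24h replicate 4 (-0.43, limma adjusted p = 0.0317, with 0.0317 to 0.498 over its alternatives). ANKRD2, under the FPKM minimum, had 37 and 70 fragments.

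Desmin, the intermediate filament protein of muscle, rose. DES (ENSSSCG00000020785), on chromosome 15 from 121428539 to 121435426, had 1846, 1781 and 1452 FPKM in NC24h and 3367, 3305 and 2875 in NC36h. Each NC36h library exceeded each NC24h library by more than the spread within either group. The log2 change was 0.91 (SE 0.12, limma adjusted p = 0.00202), and 0.81 without NC24h replicate 6.

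Among the 5 assembly factors tested, 3 rose, 1 fell and 1 did not pass. XIRP2 (ENSSSCG00000015917), a Xin repeat protein that binds actin and had the highest mean over both groups in the role, stood at 302.5, 277.9 and 207.1 FPKM in NC24h and at 271.6, 282.0 and 252.8 in NC36h, with overlapping groups and a log2 change of 0.05 (SE 0.14, limma adjusted p = 0.784). SMYD1 (ENSSSCG00000008215), a muscle methyltransferase and myosin chaperone, had 123.1, 109.4 and 67.8 FPKM in NC24h and 291.9, 238.8 and 169.5 in NC36h. It rose by 1.22 on the log2 scale (SE 0.27, limma adjusted p = 0.0101), and replicate 6 was the lowest library in both groups. The related SMYD2 (ENSSSCG00000015583), a methyltransferase of many tissues, was the single member to fall. Its FPKM of 10.3, 12.5 and 12.8 in NC24h and 8.55, 8.02 and 8.58 in NC36h gave a log2 change of -0.45 (SE 0.10, limma adjusted p = 0.00926). With median-ratio scaling, which removes the shift of all genes, the fall was -0.29 (limma adjusted p = 0.0352, with 0.00476 to 0.0428 over its alternatives). UNC45B, the muscle myosin chaperone, went from 175.1 ± 36.1 to 293.6 ± 10.7 FPKM with a log2 change of 0.76 (limma adjusted p = 0.00669). NRAP, a scaffold of early myofibrils, went from 2.76 ± 1.28 to 6.46 ± 1.90 (SD, n = 3 each) with 1.02 (limma adjusted p = 0.0299).

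How far these calls rested on single libraries was read from the fits that left out each library in turn. Of the 24 members past the threshold, 13 passed in all 6 fits, and TMOD4 in the 5 in which it was tested. The call of MYOM2 was lost without NC36h replicate 4 (limma adjusted p = 0.0530) or 5 (0.0520), of ACTN2 likewise (0.0799 and 0.0755) and of MYPN likewise (0.0537 and 0.0573). NEXN was lost without NC36h replicate 5 (0.0516), and PALLD without that library (0.0559) or NC24h replicate 5 (0.0545). ACTC1 and FLNC were lost without any of NC24h replicate 5 and NC36h replicates 4, 5 and 6, at 0.0812, 0.0864, 0.133 and 0.0836 for ACTC1 and 0.0515, 0.0938, 0.103 and 0.0740 for FLNC. The calls of MYOZ1 and NRAP were lost without NC24h replicate 5 or NC36h replicate 4 or 5 (0.0530, 0.0524 and 0.0684 for MYOZ1, and 0.0595, 0.0964 and 0.0917 for NRAP). PDLIM5 was lost without NC24h replicate 4 or 5 or NC36h replicate 4 or 5 (0.0885, 0.109, 0.110 and 0.0990). With all libraries but no filter on low values, ACTC1 (0.325), FLNC (0.0674), NRAP (0.0520) and PDLIM5 (0.0588) were lost as well. Over all alternatives the limma adjusted p ran from 0.000632 to 0.0530 for MYOM2, 0.00381 to 0.0799 for ACTN2, 0.00330 to 0.0573 for MYPN, 0.00267 to 0.0516 for NEXN and 0.00218 to 0.0559 for PALLD. It ran from 0.0168 to 0.325 for ACTC1, 0.00855 to 0.103 for FLNC, 0.00351 to 0.0684 for MYOZ1, 0.00315 to 0.0964 for NRAP and 0.00786 to 0.110 for PDLIM5. In each of these fits the direction of the 10 members was kept. Without NC24h replicate 6 the members' changes were mostly smaller, with a median of 0.58 and 24 members higher, ACTN2 going to 0.97.

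Members varied more among the NC24h libraries than among the NC36h libraries. The SD of log2(FPKM + 1) was larger in NC24h for 29 of the 32 members, with a median of 0.31 against 0.13. Over all genes tested the medians were 0.14 and 0.10, and the SD was larger in NC24h for 8875 of 14060. The mean log2 level over the tested members was 6.63, 6.496 and 5.94 in replicates 4, 5 and 6 of NC24h and 7.31, 7.27 and 7.13 in NC36h. NC36h replicate 6 was the lowest library of its own group in 20 members, and NC36h replicate 4 was the highest of the 6 libraries in 16.

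Several members have a close relative used outside muscle or at another stage, and their ratio within a library is independent of the library's scaling apart from the pseudocount. Of 22 listed pairs, 12 had both genes in the table. The log2 ratio of ACTA1 to ACTC1 went from -3.00 ± 0.83 to -1.07 ± 0.08 (SD, n = 3 each), a difference of 1.93. That of MYOM2 to MYOM1 turned from -1.13 ± 0.72 to 0.39 ± 0.14, so MYOM2 was the lower gene in each NC24h library and the higher in each NC36h library. The ratio of DES to VIM, the intermediate filament of undifferentiated cells, also turned, from -0.32 ± 0.63 to 1.25 ± 0.10, though NC24h replicate 4 was at 0.17. CAP2 against the ubiquitous CAP1 went from -0.38 ± 0.85 to 1.18 ± 0.10. Here CAP1 had a log2 change of -1.20 (limma adjusted p = 0.00455), while CAP2 was at 0.36 and did not pass (0.138).

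In the other pairs of a muscle form and its relative, the muscle form was likewise relatively higher in NC36h. The differences between the group means of the log2 ratio were 2.19 for CSRP3 to CSRP2, 1.99 for TMOD4 to TMOD3, 1.67 for SMYD1 to SMYD2 and 1.14 for UNC45B to UNC45A. SYNPO2L to SYNPO2, both members of the Z-disc core, gave 0.55. MYBPH to MYBPC1 gave 2.45 and MYBPC2 to MYBPC1 -0.71, and both rest on the few fragments of MYBPC1. Without a pseudocount MYBPH to MYBPC1 went the other way, the ratio of mean FPKM being 1400 in NC24h and 654.7 in NC36h. The direction of this pair therefore depends on the pseudocount. With a pseudocount of 0.1 the differences of these 2 pairs became 0.75 and -2.37, that of TMOD4 to TMOD3 became 2.93, and 10 pairs did not overlap. Among single genes tested the groups did not overlap for 63.6%, and no such share was computed over other pairs. In 11 of the 12 pairs the groups did not overlap, with ANKRD2 to ANKRD1 the exception (exact permutation test, two-sided, p = 0.4). For those 11 the exact permutation p was 0.1, the smallest that 3 libraries against 3 allow (0.109 adjusted over the pairs), so this test cannot reach 0.05 for any pair.

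**Figure D5:**
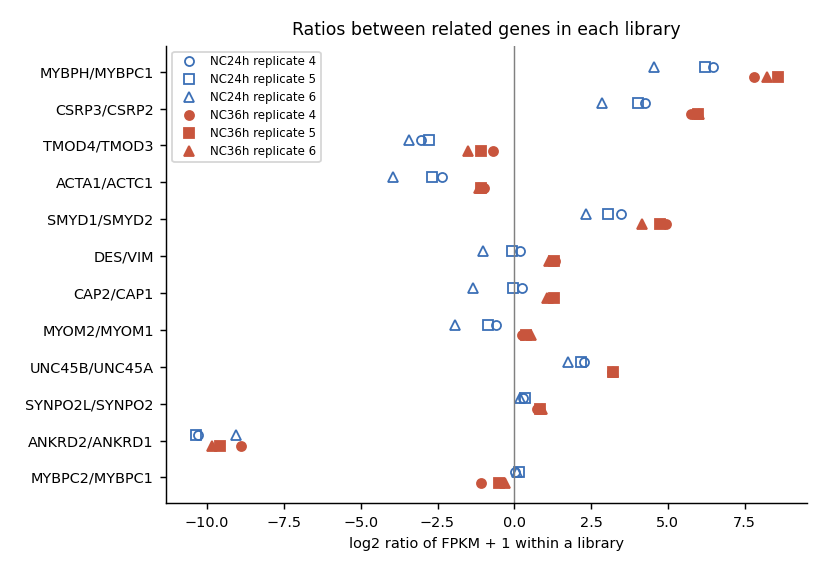
Log2 ratio of FPKM + 1 between related genes within a library (horizontal axis) for 12 pairs, with NC24h open and NC36h filled and a symbol for each replicate number. In 11 pairs the libraries of the groups lie apart, as they did for 63.6% of single genes tested. The pair MYOM2 to MYOM1 crosses 0 between the groups.

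Around the members, other genes of the same structures were read from lists. Of 18 tested partners of the sarcomere and Z-disc, 8 were higher, 1 was lower and 9 did not pass, with a median log2 change of 0.22. These counts stand beside the 16.5% higher and 34.4% lower of all genes. CAPN3, the calpain that binds titin, changed most among them, from 2.38 ± 1.03 to 18.9 ± 7.71 FPKM (SD, n = 3 each; log2 change 2.52, limma adjusted p = 0.00215). The cytoskeletal paralogs of the members were mostly lower, with 12 of 18 lower and 3 higher and a median of -0.66, and with 10 lower and 3 higher after median-ratio scaling, where 22.3% of all genes were lower. HSPB6, a small heat shock protein, was among the higher genes, from 1.83 ± 0.272 to 8.97 ± 1.73 FPKM (log2 change 1.81, limma adjusted p = 0.000721). Myosin chains, troponins and tropomyosins had 11 higher and 1 lower of 12 tested and a median of 1.86, above the members' 0.74, with MYL4, the embryonic light chain, at 2.98 (limma adjusted p = 0.00454).

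Marker lists of cell types are small and are read against the same shares of all genes. Of the skeletal myogenic markers 5 of 8 were higher in limma, and MYF5, MYOD1 and NCAM1 did not pass. MYF5 passed as lower with the replicate number as a block (adjusted p = 0.00678, with 0.00678 to 0.262 over its alternatives), MYOD1 as lower without NC24h replicate 4 (0.0223, with 0.0223 to 0.4997) and NCAM1 as higher with median-ratio scaling (0.0112, with 0.0112 to 0.182). MYMK, the fusion protein myomaker, was at 1.41 (limma adjusted p = 0.0273, lost without any 1 of the NC36h libraries). Without NC24h replicate 6 it was at 0.89, below MEF2C at 1.09. Of the fibroblast markers tested 3 of 5 were lower, with DCN at -1.48 (limma adjusted p = 0.000640), and 1 was higher. The higher marker was COL3A1, at 241.0 FPKM in NC24h and 443.2 in NC36h (log2 change 0.87, limma adjusted p = 0.00446). Of the smooth muscle markers other than SYNPO2, 1 of 5 tested was lower, TAGLN at -0.98 (limma adjusted p = 0.0277), and it did not pass after median-ratio scaling (0.0508, with 0.00437 to 0.0893 over its alternatives). Of the cardiac markers MYH6, a myosin heavy chain with near-identical relatives, was at 3.08 (limma adjusted p = 0.00250), while TBX5 was at 0 and NPPB under 0.1 FPKM.

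In position the members were scattered, with 8 on chromosome 14 and 6 on chromosome 15 of Sscrofa11.1. MYOZ1 (from 76445109 to 76453014) and SYNPO2L (from 76456170 to 76466661) lie next to each other on chromosome 14, 3156 bases apart with 0 annotated genes between. Their levels were far apart, at 2.95 and 600.05 FPKM in NC36h, and their log2 changes with a pseudocount of 1 were 1.15 and 0.71. DES and OBSL1 lie 124583 bases apart on chromosome 15 with 6 genes between, and rose by 0.91 and 0.53.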

How the data were processed

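The 6 libraries of PSCs with NC siRNA were recognised by the letter N in their titles. The authors mapped paired-end reads to Sscrofa11.1 and deposited FPKM values per gene and library, none pooled. The paper's methods name HISAT2, StringTie and HTSeq, whereas the submitters' processing notes name TopHat2, Cufflinks and HTSeq. Strandedness and the handling of shared reads were not given in the sources used here.

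Values on the log2(FPKM + 1) scale were modelled in R 4.3.3 by limma 3.58.1 (lmFit, eBayes with trend, two-sided) over genes averaging 1 FPKM or more, with Benjamini-Hochberg adjustment and a threshold of 0.05. Changes on this scale understate those of low genes. Whole fragments were recovered from the FPKM steps for each of 19543 genes that were above 0 in 3 or more libraries, and the implied length was whole to within 0.05 for 99.1%. limma voom on these fragments called 7244 genes and served as an alternative. The fit was tested on simulated data.

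Symbols were paired with 11804 of 25322 Ensembl identifiers. The members and lists were chosen with earlier results of these data known. Within each role, values in every library are given for the member with the highest mean, the largest rise and every fall past the threshold, with other members by group means. Of each list, the member with the largest change past the threshold is named. Replicate numbers were not used to pair the libraries in the main fit, and same-numbered libraries deviated together only in part. Alternatives were voom, a replicate block, leaving out each library, quantile normalization, median-ratio scaling, an untrended eBayes prior, a minimum mean of 5 FPKM or none, and pseudocounts of 0.1 and 0.01. Ratios were compared by an exact permutation test.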

Additional observations from a re-analysis of the deposited data

How the results depend on the processing

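Between NC24h and NC36h, 7156 genes passed on the deposited values (32.4% of them higher), 6503 with median-ratio scaling (51.8% higher) and 6581 with quantile normalization (46.2% higher). Leaving out 1 library each gave 4881 to 7268 genes, 14 to 25 members past the threshold against 24, 13 to 24 of them higher against 23, and a members' median log2 change of 0.58 to 0.84 against 0.74. The lowest counts of members came without NC36h replicate 4 (15 members, 14 higher) and without NC36h replicate 5 (14 members, 13 higher). Over all genes 5730 and 4881 passed in these fits, and the cause was not tested. Under the other alternatives the number of members past the threshold was between 20 and 26. Over 475 values of single members, 430 kept their direction and side of the threshold, 33 lost a call, 8 gained one and 4 changed sign, none of them past the threshold. ANKRD1 (-0.16) was at 0.011 with median-ratio scaling and between -0.54 and 0.085 when 1 library was left out, turning positive without NC24h replicate 4 or NC36h replicate 4. XIRP2 (0.051) lay between -0.11, without NC24h replicate 6, and 0.16 when 1 library was left out, and at 0.22 with median-ratio scaling. The cause was not tested. Members with few fragments (MYBPC1, MYBPC2, MYBPC3, CMYA5 and ANKRD2) were under the FPKM minimum and have no call.

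Replicate numbers 4, 5 and 6 are shared by the groups, but same-numbered libraries deviated together only in part, with correlations of 0.15, -0.02 and 0.18 across genes, and numbers 4 and 6 but not 5 correlated best with their own number. With the replicate number as a block 7034 genes and 25 members passed, 24 of them higher, where PDLIM3 (adjusted p = 0.0186) and LMOD2 (0.0447) were gained and PDLIM5 (0.0670) was lost.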
